A study of Mus musculus with 14 samples.

Results

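The loss of DOT1L and the inhibition of DOT1L were compared gene by gene in cultured mouse CD8 T cells, as the KO effect minus the EPZ effect. The KO effect is the log2 fold change of KO over WT libraries, and the EPZ effect is that of EPZ over DMSO libraries. A positive difference means that the KO effect lay above the EPZ effect. All 14 libraries of the series entered 1 fit: 3 KO, 3 WT, 4 EPZ and 4 DMSO libraries. KO cells were heterozygous for CreERT2, a Cre recombinase that is active in the presence of 4-hydroxytamoxifen, and homozygous for the floxed Dot1l allele. WT cells were heterozygous for CreERT2 with wild-type Dot1l. EPZ and DMSO cells had neither CreERT2 nor the floxed allele. All 4 groups were heterozygous for OT-I, a transgenic T cell receptor against an ovalbumin peptide, were activated through CD3 and CD28 on day 0, and were collected on day 8. KO and WT cells received 10 nM 4-hydroxytamoxifen on day 0. EPZ cells received the DOT1L inhibitor EPZ-5676 (pinometostat) and DMSO cells 0.1% DMSO, every 2 days. For EPZ-5676 a dose of 10 mM stands in the treatment label but 10 uM in the library names, and which of them holds was not settled here. The genetic background, the culture series and 4-hydroxytamoxifen all differ between the KO and WT libraries on one side and the EPZ and DMSO libraries on the other, so these cannot be told apart from the kind of perturbation. Neither the promoter of CreERT2 nor the age of the mice is given in the labels.

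DOT1L is the enzyme that methylates lysine 79 of histone H3, a mark found along the bodies of transcribed genes. Deletion of the gene removes the protein, which also takes part in complexes with elongation factors of the AF9, AF10 and ENL families, whereas EPZ-5676 occupies the binding pocket for the methyl donor and leaves the protein in place. In T cells the enzyme is known for a role in T cell identity and in the expression of T cell receptor signalling genes.

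The libraries held 5643724 to 20586093 counts (a ratio of 3.65), and mitochondrial genes took 0.645 to 1.78% of counts. The CD8 T cell markers were present in every library: the T cell receptor chain gene Cd3e lay between 461 and 637 CPM (counts brought to equal library size, with TMM factors), and Cd8a between 89.3 and 858. Transcripts of Xist and Ddx3y did not match the sex on the label in 4 of the 6 KO and WT libraries (KO 2, KO 3, WT 2 and WT 3), and they matched in 8 of 8 EPZ and DMSO libraries. KO 2 and WT 3 were labelled female with male transcripts, and KO 3 and WT 2 male with female transcripts. Sex labels exchanged between replicates 2 and 3 of each group would give the same pattern, which was not tested. Cd8a stood at 89.3 to 134 CPM in the KO libraries and at 682 to 729 in the WT libraries. Counts of genes are also given without the 4 libraries that did not match, where 1 KO and 1 WT library remain and are assumed to vary like the other groups. That fit holds only libraries from which the named genes were chosen, so a direction kept in it is no independent check. Of the 134 named genes called for the difference, 32 stayed called in that fit and all 134 kept their direction. Dot1l itself (ENSMUSG00000061589, mm10 chromosome 10, 80755206 to 80795461) stood at 218, 201 and 190 CPM in KO, against 134, 140 and 133 in WT, at 110, 99.1, 86.1 and 108 in EPZ and at 92.3, 80.4, 94.5 and 94.7 in DMSO. Its difference of effects was 0.43 ± 0.11 (SE; adjusted p = 0.027, edgeR quasi-likelihood test), with a KO effect of 0.58 ± 0.09 and an EPZ effect of 0.15 ± 0.07, and the call was lost without KO 1 (adjusted p = 0.0889), WT 1 (0.0585) or WT 3 (0.0683). The Dot1l count thus went against a plain loss of transcript in the libraries labelled KO, and a count of all its exons cannot show a deleted part. Every direction below is that of the libraries labelled KO.

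Genes called in both comparisons mostly moved the same way, and a minority of all genes differed between the responses. Of 12639 genes tested, the difference was called (adjusted p under 0.05, edgeR) for 970 (7.67%), with the KO effect above the EPZ effect for 419 (3.32%) and below it for 551 (4.36%). An absolute difference of at least 1 on the log2 scale was reached by 260 of them, 158 higher and 102 lower. For KO over WT itself 4385 genes were called (34.7%), 2178 higher (17.2%) and 2207 lower (17.5%), and for EPZ over DMSO 3161 (25%), 1807 higher (14.3%) and 1354 lower (10.7%). Of the 2063 genes called in both comparisons, which share no library, 2025 (98.2%) had the same sign. Across those genes the first principal axis of the effects had a slope of 1.62 KO units per EPZ unit, and Pearson's r was 0.908. Genes are not independent replicates, and the selection on both calls raises this r, which was 0.759 across all genes tested. Without the 4 libraries in doubt the difference was called for 27 genes higher and 45 lower. The higher count fell to 276 without KO 3 and the lower count to 322 without KO 2.

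The 970 genes were sorted by which of the effects were called on their own. A KO effect alone was called for 509 genes (52.5% of the 970), both effects with the same sign and the larger size in KO for 332 (34.2%), and an EPZ effect alone for 83 (8.56%). In 38 genes (3.92%) both effects were called with opposite signs. A single gene, Wfikkn2, had both effects called with the larger one in EPZ, and 7 had neither effect called. A missing call is not a missing effect: the estimates of the 509 genes had opposite signs in 225, and those of the 83 genes in 70. Which effect was larger depended on the selection of genes. Among genes called higher in KO the median effects were 0.742 in KO and 0.39 in EPZ, and among those called lower -0.457 and -0.189. Among genes called higher in EPZ they were 0.519 in KO and 0.566 in EPZ, and among those called lower -0.424 and -0.343. A second contrast multiplied the EPZ effect by the slope of 1.62, which came from these same data and was treated as fixed. With it 163 genes were called higher and 251 lower, of which 336 genes were among the 970. Of the 134 named genes called, 74 stayed called there, among them Tox, Myb, Cd6, Themis, Nab2 and Satb1. Of the genes described below, Dot1l, E2f2, Egr2, Nr4a2, Dusp6, Havcr2, Ccr7, Il6ra, Il21r, Tyrobp, Fcgr3, Serpinb9b, Fas, Runx2, Gata1, Emp2, Scin and Adamts14 did not (adjusted p from 0.0723 for Nr4a2 to 0.573 for Fcgr3). Others that lost the call are marked where they are described.

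**Figure D1:**
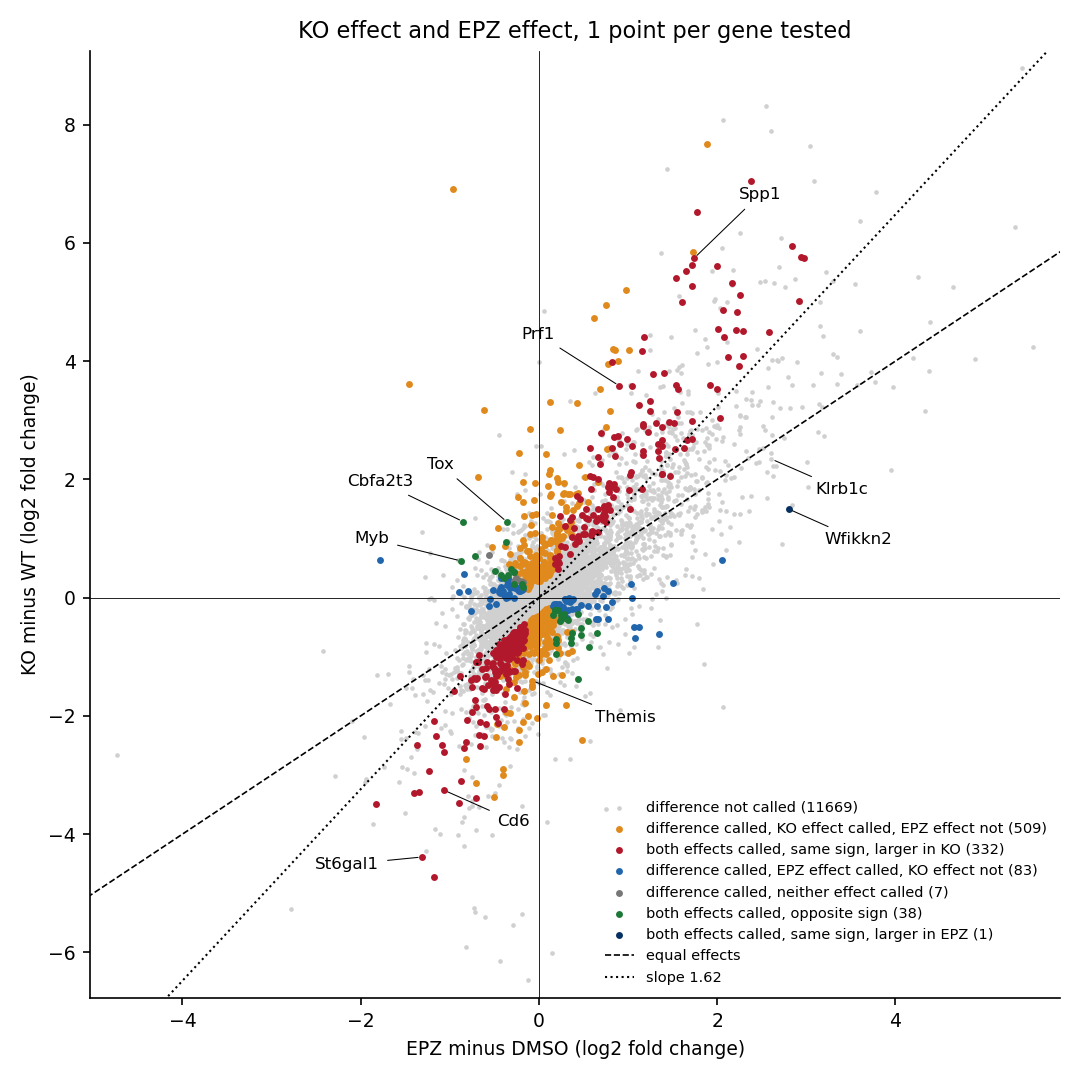
KO effect (vertical axis, log2 fold change of KO over WT) against EPZ effect (horizontal axis, log2 fold change of EPZ over DMSO) for 12639 genes, 1 point per gene, coloured by response class, with a dashed line of equal effects and a dotted line of slope 1.62. The 332 genes with both effects called and the larger one in KO lie steeper than the dashed line, and the 38 genes of opposite sign lie in the upper left and lower right quadrants.

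Opposite responses were few and included regulators of T cell development and exhaustion. Tox, a nuclear factor of the exhaustion programme (ENSMUSG00000041272, chromosome 4, 6686353 to 6991557), had 24.1, 27.2 and 26.4 CPM in KO, against 7.74, 11.9 and 12.1 in WT. In EPZ it had 21.01, 22.4, 18.6 and 23.4 CPM, against 28.5, 29.8, 25.8 and 24.5 in DMSO. Tox was thus higher in every KO library than in any WT library, and lower in every EPZ library than in any DMSO library. Tox was also lower in every WT library than in any DMSO library, and its KO libraries overlapped DMSO libraries. The KO effect of Tox thus starts from WT levels well under those of DMSO. Its effects were 1.28 ± 0.14 in KO and -0.36 ± 0.11 in EPZ (SE), a difference of 1.63 ± 0.17 (adjusted p = 1.2e-05). The call held in each of the 14 fits without 1 library and without the 4 libraries in doubt.

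Myb, a transcription factor of progenitors and of memory-like T cells that is also a DOT1L-dependent gene in MLL leukaemia (ENSMUSG00000019982, chromosome 10, 21124935 to 21160984), showed the same pattern. It had 33.2, 31.4 and 33.6 CPM in KO, against 23.5, 17.6 and 21.9 in WT, and 25.9, 17.1, 22.0 and 18.2 in EPZ, against 41.2, 41.0, 35.6 and 34.3 in DMSO. Within neither pair did the groups overlap. WT libraries overlapped EPZ libraries, however, and both WT and KO libraries lay below every DMSO library. The KO effect was 0.62 ± 0.14, the EPZ effect -0.87 ± 0.11 and their difference 1.49 ± 0.18 (SE; adjusted p = 5.5e-05). Cbfa2t3, a co-repressor of the ETO family (ENSMUSG00000006362), had 6.09, 6.78 and 8.18 CPM in KO, against 2.30, 2.93 and 3.20 in WT, and 2.55, 2.59, 2.57 and 2.71 in EPZ, against 6.33, 3.52, 4.29 and 4.13 in DMSO. Its WT libraries lay below every DMSO library, and its KO libraries overlapped DMSO libraries. With effects of 1.28 in KO and -0.85 in EPZ, its difference of 2.13 ± 0.28 (adjusted p = 0.00013) was the highest of the 15 genes that rose in KO and fell in EPZ. The others named by rule were the deubiquitinase gene Mindy1 (0.93 in KO and -0.37 in EPZ), the adhesion molecule gene Alcam (0.45 and -0.49) and the sterol transporter gene Gramd1a (0.39 and -0.42), with differences of 1.31, 0.94 and 0.81. Zfp36l1, an RNA-binding protein that promotes mRNA decay and was chosen after its values were seen, had effects of 0.34 and -0.40.

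Another 23 genes fell in KO and rose in EPZ. Sgk3, a kinase downstream of phosphoinositides (ENSMUSG00000025915), had 22.1, 26.6 and 26.6 CPM in KO, against 48.9, 50.2 and 48.6 in WT, and 44.5, 48.8, 40.7 and 42.6 in EPZ, against 38.6, 39.0, 39.0 and 37.4 in DMSO. Both pairs were free of overlap, although the rise in EPZ was small (0.20 ± 0.07, adjusted p = 0.042) beside the fall in KO (-0.96 ± 0.08), and the difference was -1.16 ± 0.11 (adjusted p = 2.4e-06). Mbnl1, a splicing regulator that was chosen after its values were seen, had 1014, 997 and 1008 CPM in KO, against 1644, 1674 and 1584 in WT, and 1995, 2187, 2096 and 1970 CPM in EPZ, against 1719, 1913, 1821 and 1756 in DMSO. No pair overlapped, and its difference was -0.89 ± 0.08 (adjusted p = 1.5e-06). The water and glycerol channel gene Aqp9, also chosen after its values were seen, had 67.7, 66.8 and 72.4 CPM in KO, against 116, 109 and 107 in WT, and 102, 95.2, 105 and 93.2 in EPZ, against 78.5, 76.9, 76.5 and 76.6 in DMSO.

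Aqp9 thus fell by 0.69 in KO and rose by 0.36 in EPZ, a difference of -1.04 ± 0.09 (adjusted p = 7.0e-07). Tesc, a calcineurin-like calcium-binding protein, had a difference of -1.25 (-0.60 in KO and 0.65 in EPZ), and Hemgn, a nuclear protein of haematopoietic cells, one of -1.14 (-0.77 and 0.36). The leucine-rich repeat gene Lrrn4 had a difference of -1.82 at low levels, with means of 0.645 CPM in KO, 1.84 in WT, 5.43 in EPZ and 3.95 in DMSO. The call of Stac2 (difference of -1.39) was lost without KO 2 (adjusted p = 0.0513), and that of Wdr89 (-1.09) without KO 2 (0.0538), KO 3 (0.0628) or WT 3 (0.0753). Without the 4 libraries in doubt the call of the difference held for Tox, Sgk3, Mbnl1, Aqp9, Tesc and Hemgn. It was lost for Myb (adjusted p = 0.0812), Cbfa2t3 (0.0684), Mindy1 (0.0747), Alcam (0.0962), Gramd1a (0.127), Zfp36l1 (0.0747), Lrrn4 (0.19), Stac2 (0.307) and Wdr89 (0.581), with their direction kept. As a class, the genes of opposite sign made up 0.301% of all genes tested. Their number was 7 without the 4 libraries in doubt and 61 with the animal of the EPZ and DMSO libraries as a block. It was 21 without KO 1, 24 without KO 2, WT 1 or EPZ 2 and 23 without DMSO 2.

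**Figure D2:**
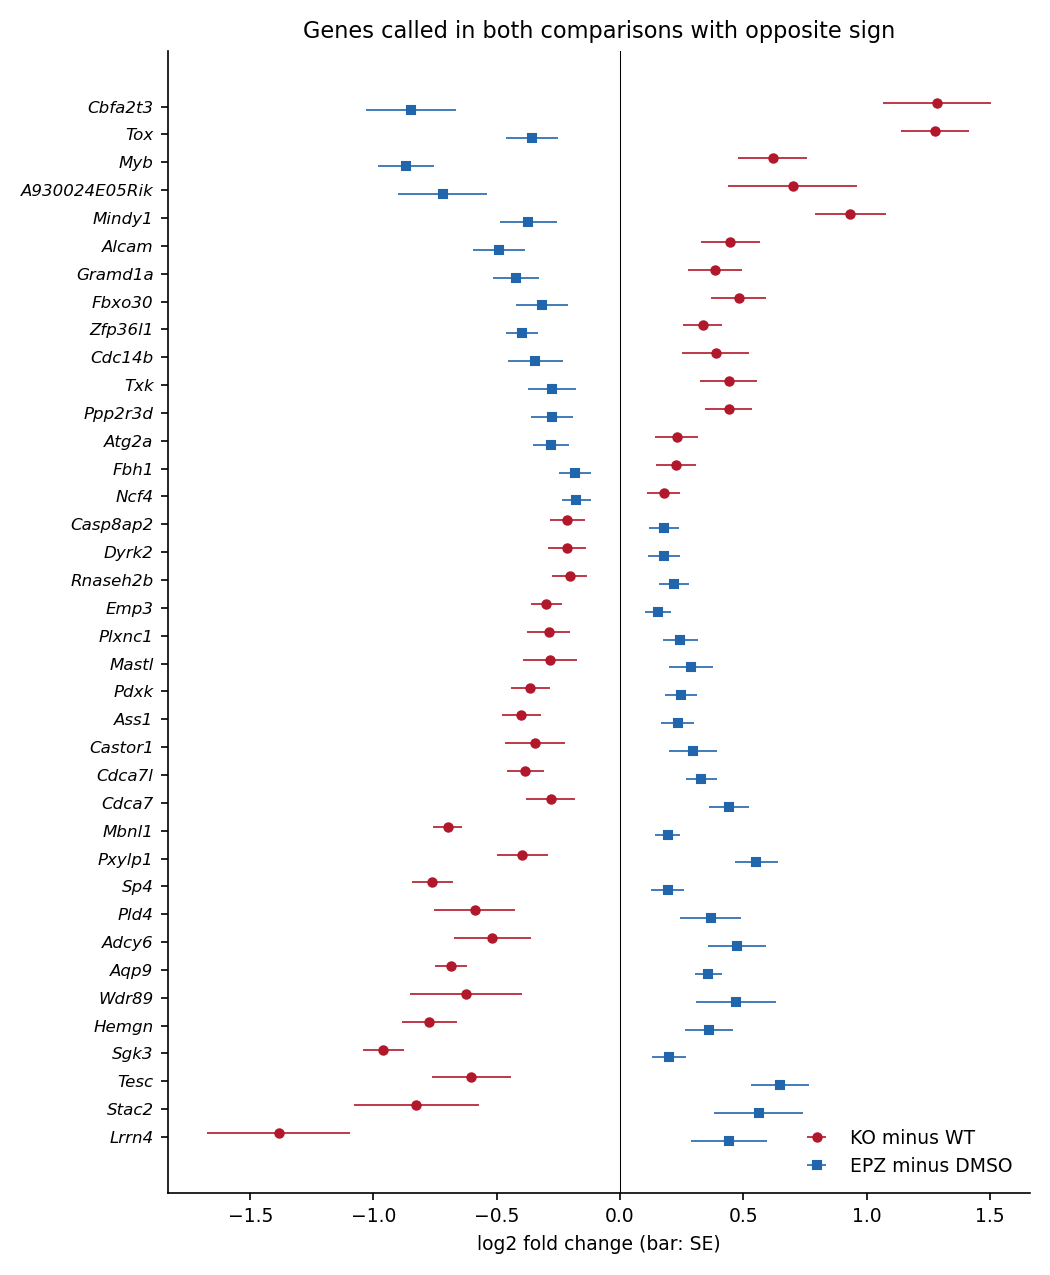
KO effect and EPZ effect (log2 fold change, horizontal axis) of the 38 genes whose effects were both called with opposite signs, 1 gene per line down the page, with bars of 1 SE. The 15 genes higher in KO and lower in EPZ are led by Cbfa2t3, Tox and Myb, and among the 23 lower in KO and higher in EPZ are Lrrn4, Sgk3 and Mbnl1.

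Many genes of the T cell receptor complex and its signalling fell further in KO than in EPZ. Of 51 genes on this list, all tested, 32 were called lower and 5 higher in KO over WT, and 26 lower and 2 higher in EPZ over DMSO. Their difference was called lower for 23 and higher for 3 (51% called, against 7.67% of all genes). Median effects were -0.455 in KO and -0.176 in EPZ, and the median difference was -0.139, against -0.034 over all genes. Among the 26 called genes, 15 had both effects called with the larger one in KO and 9 had a KO effect alone. With the EPZ effect scaled the list held 11 lower and 4 higher, and without the 4 libraries in doubt 10 lower and 0 higher. In bulk libraries, fewer cells that express a gene and less RNA of it per cell cannot be told apart.

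Cd6, a surface co-receptor that tunes T cell receptor signals (ENSMUSG00000024670, chromosome 19, 10789341 to 10830058), had the smallest adjusted p of all genes. It had 29.2, 32.4 and 22.6 CPM in KO, against 244, 289 and 279 in WT, and 133, 144, 150 and 140 CPM in EPZ, against 289, 318, 269 and 310 in DMSO. Its effects of -3.26 ± 0.11 in KO and -1.07 ± 0.08 in EPZ differed by -2.19 ± 0.14 (SE; adjusted p = 9.0e-08). The control libraries of the 2 experiments overlapped, and the KO libraries lay far below the EPZ libraries. Cd5, an inhibitory co-receptor of the same family, fell by 2.11 in KO and by 0.66 in EPZ, a difference of -1.45 ± 0.12.

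Cd8a, a chain of the CD8 co-receptor (ENSMUSG00000053977, chromosome 6, 71373427 to 71379173), had 122, 134 and 89.3 CPM in KO, against 682, 707 and 729 in WT, and 370, 405, 402 and 417 in EPZ, against 805, 858, 856 and 818 in DMSO. The groups of each pair lay apart, and the difference of -1.55 ± 0.13 (adjusted p = 1.5e-06) parted a KO effect of -2.61 from an EPZ effect of -1.07. Its partner chain Cd8b1, chosen after its values were seen, had effects of -2.34 and -1.15, and its difference of -1.19 ± 0.11 was no longer called with the EPZ effect scaled (-0.47, adjusted p = 0.0929).

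Themis, a thymocyte selection protein that sets the strength of T cell receptor signals (ENSMUSG00000049109, chromosome 10, 28668360 to 28883818), fell in KO libraries with little movement in EPZ. It had 96.9, 95.1 and 100.5 CPM in KO, against 258, 265 and 250 in WT, whereas EPZ libraries at 314, 348, 354 and 292 CPM overlapped DMSO libraries at 328, 355, 371 and 326. The KO effect was -1.40 ± 0.08, the EPZ effect -0.08 ± 0.06 (adjusted p = 0.42) and the difference -1.33 ± 0.10 (adjusted p = 7.0e-07). Grap2, an adaptor that links LAT to SLP-76, had effects of -1.25 in KO and -0.26 in EPZ, a difference of -0.98 ± 0.08. Plcg1, the phospholipase of the receptor pathway, had effects of -1.88 in KO and -0.49 in EPZ and a difference of -1.39 ± 0.13. The kinase gene Lck differed by -0.45 ± 0.08 (-0.52 in KO and -0.07 in EPZ), and the alpha chain constant gene Trac by -1.12 ± 0.10 (-1.46 and -0.33). Plcg1, Lck and Trac were chosen after their values were seen. Bcl11b, a factor of T cell identity outside the list that was chosen likewise, differed by -1.66 ± 0.13 (-2.12 in KO and -0.46 in EPZ). Of the members named here, Lck was not called without the 4 libraries in doubt (adjusted p = 0.157), and Cd6, Cd5, Cd8a, Cd8b1, Themis, Grap2, Plcg1 and Trac were. The difference was not called for Cd3e, Cd3g, Cd247, Zap70, Fyn, Lat, Vav1, Cd28, Trbc1 and Trbc2.

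**Figure D3:**
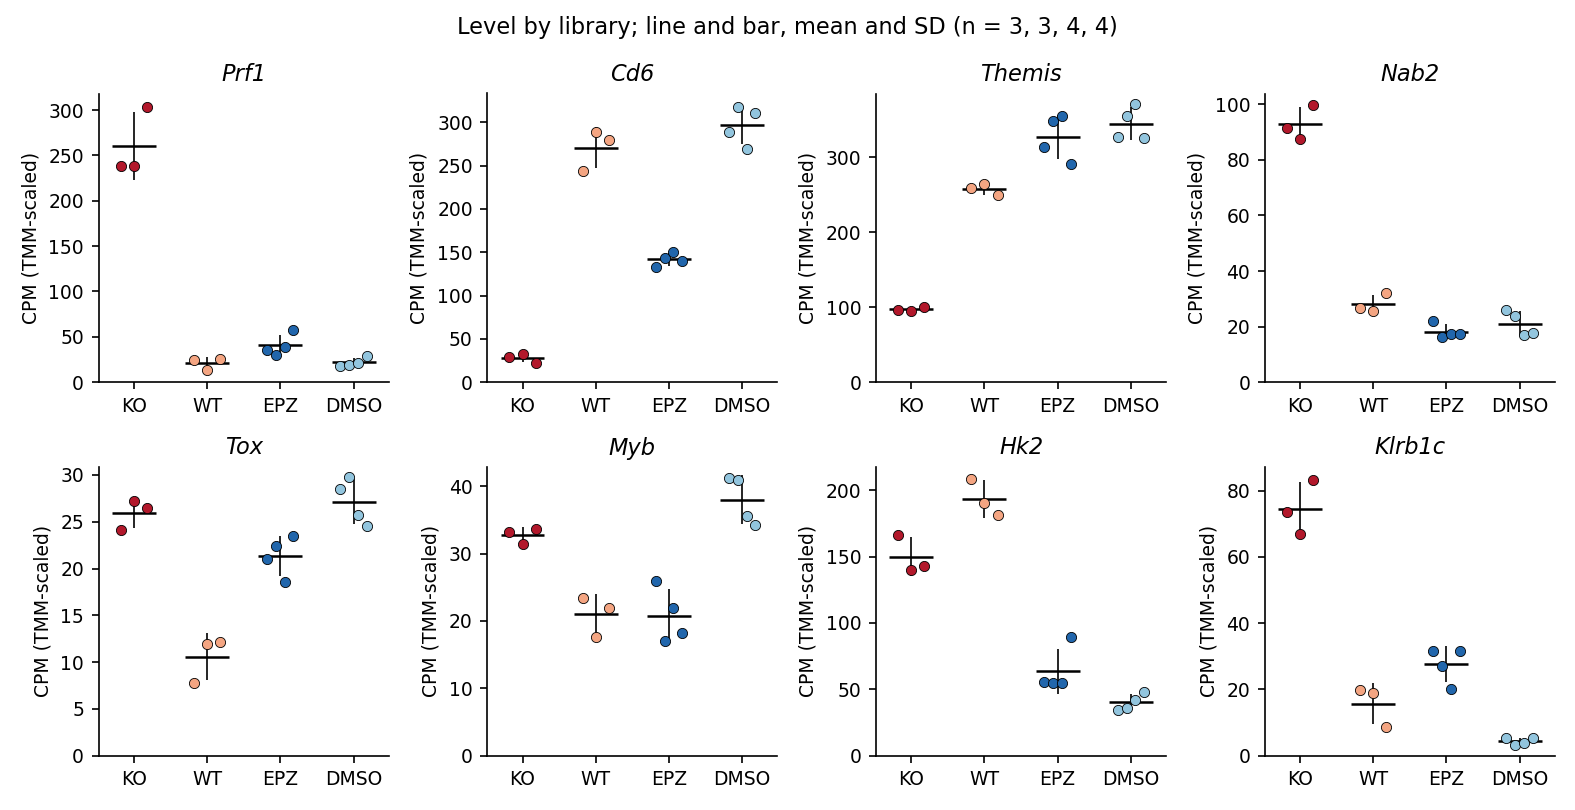
TMM-scaled CPM (vertical axis, own scale per gene) of Prf1, Cd6, Themis, Nab2, Tox, Myb, Hk2 and Klrb1c in each library of KO, WT, EPZ and DMSO, 1 point per library, with a line at the mean and a bar of 1 SD (n = 3, 3, 4 and 4). Tox and Myb lie higher in KO than in WT and lower in EPZ than in DMSO, and Themis and Nab2 part KO from WT while EPZ overlaps DMSO.

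Immediate early genes are switched on within minutes by T cell receptor and MAP kinase signals. On a list of these and of MAP kinase feedback genes, 21 of 30 members were called higher and 1 lower in KO over WT. In EPZ over DMSO the counts were 11 and 1 for the same members. For 10 of them the difference was called higher, and for 1, Dusp1, lower (36.7% called), with median effects of 0.852 in KO and 0.165 in EPZ and a median difference of 0.547. In 9 of the 11 called genes a KO effect alone was called. All 9 KO over WT ratios of single libraries lay above all 4 EPZ over DMSO ratios in 16 of the 30 genes, against 8.59% of all genes, and below them in 0, against 9.08%. The list held 6 higher and 0 lower with the EPZ effect scaled, and 1 higher and 0 lower without the 4 libraries in doubt.

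Nab2, a co-repressor of the EGR factors that is itself induced by them (ENSMUSG00000025402, chromosome 10, 127660918 to 127668568), had 91.3, 87.3 and 99.7 CPM in KO, against 26.6, 25.7 and 32.0 in WT, whereas EPZ libraries at 22.1, 16.1, 17.3 and 17.3 CPM overlapped DMSO libraries at 26.1, 23.8, 16.8 and 17.6. The difference was 1.93 ± 0.20 (adjusted p = 3.1e-05), from 1.70 ± 0.15 in KO and -0.23 ± 0.14 in EPZ, and it was the only member called without the 4 libraries in doubt. Egr1, a zinc finger factor of this response, had 85.3, 86.5 and 74.4 CPM in KO, against 23.0, 26.0 and 30.2 in WT, and 224, 153, 181 and 153 CPM in EPZ, against 201, 197, 147 and 257 in DMSO. KO and WT lay apart and EPZ and DMSO overlapped, yet both EPZ and DMSO libraries stood above every KO library. Its difference was 1.79 ± 0.27 (adjusted p = 0.0019; 1.62 in KO and -0.17 in EPZ), and this KO effect starts from WT levels well under those of DMSO.

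Nr4a3, an orphan nuclear receptor induced by receptor signals, had 23.1, 20.7 and 23.1 CPM in KO, against 6.65, 3.48 and 6.24 in WT, and 2.17, 2.81, 3.04 and 2.55 CPM in EPZ, against 2.16, 2.30, 2.82 and 2.07 in DMSO. It differed by 1.74 ± 0.26, from 1.96 in KO and 0.21 in EPZ. The phosphatase gene Dusp2 differed by 0.68 ± 0.13 (0.66 and -0.02). Chosen after their values were seen, Junb, a subunit of AP-1, differed by 1.25 ± 0.24 (0.87 in KO and -0.39 in EPZ), Nr4a2 by 1.17 ± 0.27 (1.08 and -0.10) and Egr2 by 1.71 ± 0.36 (2.37 and 0.66). Dusp6, another phosphatase gene chosen likewise, differed by 0.55 ± 0.13, a call lost without KO 3 (adjusted p = 0.0508). For Egr3 and Nr4a1 both effects were positive, and the differences of 1.41 ± 0.60 and 0.54 ± 0.26 were not called (adjusted p = 0.18 and 0.23). With the animal as a block Egr3 was called (adjusted p = 0.0214). Its adjusted p ran from 0.00838 to 0.378 over the 14 fits without 1 library.

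Genes of naive and memory T cells fell in both comparisons, and several of them further in KO. Of 29 members, 24 were called lower and 2 higher in KO over WT, and 18 lower and 2 higher in EPZ over DMSO. For 12 the difference was called lower, and for 1, Myb, higher (44.8% called), with median effects of -0.808 in KO and -0.390 in EPZ and a median difference of -0.497. The counts were 5 lower and 1 higher with the EPZ effect scaled, and 3 lower and 0 higher without the 4 libraries in doubt. Satb1, a genome organiser of T cells, had 145, 148 and 132 CPM in KO, against 415, 425 and 384 in WT, and 665, 687, 769 and 554 CPM in EPZ, against 821, 856, 745 and 751 in DMSO. KO lay far below WT, EPZ and DMSO overlapped, and the difference was -1.28 ± 0.12 (adjusted p = 4.0e-06; -1.52 in KO and -0.25 in EPZ). With the animal as a block the EPZ effect of Satb1 was -0.25 (edgeR adjusted p = 0.0099).

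Id3, an inhibitor of E proteins tied to the memory fate, had 7.86, 10.9 and 6.83 CPM in KO, against 20.6, 22.2 and 20.9 in WT, whereas EPZ libraries at 34.3, 31.9, 35.4 and 28.5 CPM overlapped DMSO libraries at 32.9, 35.4, 29.7 and 28.8. The effects of -1.25 ± 0.14 in KO and 0.04 ± 0.10 in EPZ differed by -1.29 ± 0.18 (adjusted p = 0.00015). Ets1, a factor needed for quiescent T cells, differed by -0.88 ± 0.09 (-1.06 and -0.18). These 3 were the members called without the 4 libraries in doubt. Il7r, the interleukin-7 receptor chain, was chosen after its values were seen and had 20.03, 20.4 and 18.1 CPM in KO, against 41.2, 39.6 and 31.1 in WT, and 54.1, 47.2, 74.2 and 37.4 CPM in EPZ, against 47.5, 41.9, 41.4 and 34.4 in DMSO. KO lay below WT, and EPZ overlapped DMSO but lay above it within every animal. The difference of -1.27 ± 0.29 (adjusted p = 0.018) was lost without KO 2 or KO 3 (0.0503 and 0.0531). Ccr7, the lymph node homing receptor, was chosen likewise, and its difference of -1.41 ± 0.33 (-2.49 in KO and -1.08 in EPZ; adjusted p = 0.024) was lost without KO 1, KO 2, KO 3, WT 1, WT 3 or EPZ 3, at adjusted p of 0.0517 to 0.0704. Tcf7, the factor of stem-like T cells, fell in both, and its effects of -0.77 ± 0.12 in KO and -0.60 ± 0.10 in EPZ differed by -0.17 ± 0.15, which was not called (adjusted p = 0.58). Lef1, its relative, chosen after its values were seen, differed by 0.15 ± 0.14 (adjusted p = 0.59).

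Cytokine receptors followed in part, with 6 of 24 called lower and 0 higher (25% called; 4 lower with the EPZ effect scaled and 0 without the 4 libraries in doubt). As a whole the list did not shift: its median difference was 0.002, against -0.034 over all genes. That median turned negative under several alternatives, such as without KO 1 (-0.03) or with the EPZ effect scaled (-0.038). In KO over WT 7 members were called higher and 11 lower, and in EPZ over DMSO 4 and 6. Ifngr2, a chain of the interferon gamma receptor, had 1.01, 1.92 and 1.34 CPM in KO, against 12.3, 12.3 and 12.6 in WT, and 11.2, 9.20, 13.8 and 8.22 CPM in EPZ, against 16.7, 14.0, 14.96 and 10.7 in DMSO. KO stood apart from WT, EPZ and DMSO overlapped, and the difference was -2.60 ± 0.31 (adjusted p = 3.9e-05; -3.00 in KO and -0.40 in EPZ). Within every animal, however, the EPZ library of Ifngr2 lay below the DMSO library. With the animal as a block its EPZ effect was -0.43 (edgeR adjusted p = 0.0074). The receptor genes Il21r, Ifnar2 and Il27ra differed by -0.53, -0.57 and -0.49, and Il6ra, chosen after its values were seen, by -1.65 ± 0.30.

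Among 31 tested chemokine receptors, integrins and adhesion molecules, 6 were called lower and 2 higher (25.8% called). Itgax, the integrin chain CD11c, had 33.8, 26.3 and 36.7 CPM in KO, against 7.62, 6.97 and 9.49 in WT, while EPZ libraries at 6.08, 4.74, 5.401 and 5.75 CPM overlapped DMSO libraries at 6.33, 3.52, 6.74 and 6.03. Its difference was 1.99 ± 0.26 (adjusted p = 8.9e-05). Ccr4, a chemokine receptor, differed the other way by -2.01 ± 0.23, with a KO effect of -2.24 and an EPZ effect of -0.23 (adjusted p = 0.25), and Cxcr3, the receptor for interferon-induced chemokines, by -0.69 ± 0.10. Itgae, the integrin chain CD103, chosen after its values were seen, fell strongly in both, by 3.48 in KO and by 1.82 in EPZ. Its difference of -1.66 ± 0.33 was not called with the EPZ effect scaled (-0.53, adjusted p = 0.551).

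Many cytotoxic effector genes rose in both comparisons, some of them further in KO. Of 25 genes, 14 were called higher in KO over WT and 13 in EPZ over DMSO, with 1 lower in each. The difference was called higher for 5 and lower for 0 (20% called), and all 5 had both effects called. Median effects were 0.404 in KO and 0.238 in EPZ, and the median difference was 0.376. With the EPZ effect scaled 2 were called, and without the 4 libraries in doubt 1.

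Prf1, which encodes perforin (ENSMUSG00000037202, chromosome 10, 61297833 to 61304680), had 238, 239 and 304 CPM in KO, against 24.3, 13.0 and 25.3 in WT, and 35.9, 30.5, 39.3 and 57.4 CPM in EPZ, against 17.8, 19.3, 21.3 and 28.8 in DMSO. Neither pair overlapped, WT and DMSO libraries covered similar ranges, and the difference was 2.68 ± 0.36 (adjusted p = 0.0011; 3.58 ± 0.28 in KO and 0.90 ± 0.24 in EPZ). Gzmc, a granzyme, had 327, 349 and 496 CPM in KO, against 41.4, 25.1 and 31.0 in WT, and 16.2, 11.3, 17.5 and 23.3 CPM in EPZ, against 8.48, 5.66, 10.9 and 8.26 in DMSO. Both pairs lay apart. Its difference of 2.54 ± 0.38 (adjusted p = 0.0021) was not called with the EPZ effect scaled (1.89, adjusted p = 0.0825). Granzymes C to G are close copies in 1 gene cluster, so the share of each is uncertain.

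Serpinb6b, a serine protease inhibitor, rose by 1.38 in KO and by 0.24 in EPZ, and its difference of 1.14 ± 0.13 (adjusted p = 2.5e-05) was the cytotoxic gene call that held without the 4 libraries in doubt. Serpinb9, the inhibitor of granzyme B, differed by 0.87 ± 0.16 (1.69 and 0.83), which was not called with the EPZ effect scaled (adjusted p = 0.417). Serpinb9b, chosen after its values were seen, had effects of 5.33 in KO and 2.16 in EPZ at 0.130 CPM in WT. For Gzmb, the granzyme B gene, KO libraries had 2196, 2323 and 2394 CPM, against 2115, 1445 and 1885 in WT, and EPZ libraries had 896, 836, 892 and 1030 CPM, against 961, 829, 1048 and 977 in DMSO. Its difference of 0.41 ± 0.15 was not called (adjusted p = 0.13), but it was without WT 1 (adjusted p = 0.0413).

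Granzyme D and granzyme E had the largest KO effects of the granzymes named and missed the threshold for the difference. Gzmd had 178, 166 and 267 CPM in KO, against 3.99, 1.47 and 5.78 in WT, while EPZ libraries at 4.34, 2.81, 13.4 and 14.96 CPM overlapped DMSO libraries at 1.05, 0.0820, 5.88 and 3.62. Within every animal, however, EPZ lay above DMSO, with an EPZ effect of 1.85 under the block (edgeR adjusted p = 0.017). The difference of 3.58 ± 1.2 was not called (adjusted p = 0.11), nor was that of Gzme (3.85 ± 1.2, adjusted p = 0.083), and both were with the animal as a block (adjusted p = 0.0135 and 0.014). Gzma differed by 0.65 ± 0.34 (adjusted p = 0.30). These 3 granzymes were chosen after their values were seen. Ifng, the effector cytokine, rose in both, by 2.46 ± 0.26 in KO and 1.77 ± 0.30 in EPZ, and its difference of 0.69 ± 0.43 was not called (adjusted p = 0.38).

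NK receptors and their signalling adaptors, which carry an ITAM motif, were called higher for 10 of 21 tested and lower for 4 in each comparison. For the difference, 6 were called higher and 2 lower (38.1% called). Median effects were 0.566 in KO and 0.467 in EPZ, and the median difference was -0.131, of the opposite sign to most calls. That median turned positive without WT 1 (0.003), EPZ 1 (0.123), EPZ 3 (0.151), EPZ 4 (0.042) or DMSO 3 (0.042), with the libraries thinned to equal depth (0.167) and with the EPZ effect scaled (0.107). With the EPZ effect scaled 1 was higher and 2 lower, and without the 4 libraries in doubt 1 and 1. Cd244a, the receptor 2B4, had 146, 145 and 179 CPM in KO, against 27.5, 28.6 and 25.9 in WT, and 20.8, 17.96, 20.4 and 26.3 CPM in EPZ, against 12.7, 9.67, 14.6 and 11.5 in DMSO. Both pairs lay apart, and the effects of 2.53 and 0.82 differed by 1.71 ± 0.18 (adjusted p = 2.4e-05).

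The adaptor gene Fcer1g had 55.0, 53.1 and 76.3 CPM in KO, against 4.72, 4.40 and 4.23 in WT, and 4.18, 3.03, 4.73 and 3.78 CPM in EPZ, against 1.58, 0.984, 1.103 and 2.15 in DMSO. Its difference was 2.39 ± 0.33 (adjusted p = 0.00016), not called with the EPZ effect scaled (1.52, adjusted p = 0.0784). Tyrobp, the adaptor DAP12, was chosen after its values were seen and had effects of 3.53 in KO and 0.68 in EPZ. Syk, the kinase that ITAM adaptors recruit in innate cells, had 14.96, 13.7 and 17.9 CPM in KO, against 1.33, 1.1 and 0.619 in WT, and 7.11, 7.27, 7.41 and 8.71 CPM in EPZ, against 1.63, 1.23, 1.47 and 1.81 in DMSO. It rose by 4.09 in KO and by 2.29 in EPZ, so the difference of 1.80 ± 0.32 (adjusted p = 0.0017) was small against the slope and was not called with the EPZ effect scaled (0.38, adjusted p = 0.681).

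Klrk1, the activating receptor NKG2D, moved the other way. It had 95.7, 99.4 and 99.9 CPM in KO, against 232, 193 and 191 in WT, and 52.3, 50.6, 54.7 and 56.4 in EPZ, against 73.8, 56.4, 58.8 and 62.9 in DMSO. KO and WT lay apart, and EPZ and DMSO met at 56.4, although EPZ lay below DMSO within every animal. With the animal as a block the EPZ effect of Klrk1 was -0.24 (edgeR adjusted p = 0.025). Its difference was -0.82 ± 0.12 (adjusted p = 0.00037). Klrb1c, the receptor NK1.1, chosen after its values were seen, had 73.7, 66.8 and 83.1 CPM in KO, against 19.7, 18.9 and 8.61 in WT, and 31.4, 27.0, 20.1 and 31.6 CPM in EPZ, against 5.22, 3.28, 3.68 and 5.34 in DMSO. Neither pair overlapped, and the effects of 2.35 ± 0.28 in KO and 2.60 ± 0.27 in EPZ differed by -0.26 ± 0.40 (adjusted p = 0.76), and an SE of this size does not show that they act alike. Fcgr3, a low-affinity Fc receptor chosen likewise, rose by 5.75 and 2.98, and its call (adjusted p = 0.0057) was lost without DMSO 1 (0.0836). Fcer1g, Fcgr3 and Tyrobp are also expressed by mast cells and myeloid cells. The summed level of 12 mast cell and basophil markers was 113 to 148 CPM in KO, 18.2 to 22.2 in WT, 53.1 to 69.3 in EPZ and 17.0 to 27.0 in DMSO, most of it Kit. Kit, a receptor tyrosine kinase, had 111, 86.9 and 115 CPM in KO, against 16.1, 19.8 and 14.4 in WT, and 48.5, 53.1, 65.0 and 54.2 CPM in EPZ, against 15.1, 15.7, 25.5 and 15.2 in DMSO. Of the 5 markers tested, 5 were called higher in KO over WT and 4 in EPZ over DMSO. The protease gene Mcpt8 had 358 counts in KO, 7 in WT, 20 in EPZ and 2 in DMSO, Cpa3 had 199, 16, 73 and 21, and Cma1 76, 2, 12 and 2. Il1rl1, the interleukin-33 receptor, had 373 counts in KO, 63 in WT, 177 in EPZ and 45 in DMSO. The defining markers Mcpt4, Tpsb2, Tpsab1, Ms4a2, Fcer1a and Gata2 had 0 counts in all 14 libraries, and the part of such cells in these differences was not tested. Kit differed by 1.01 ± 0.26 (adjusted p = 0.027), which missed the threshold if KO 1, KO 3, WT 1, WT 3 or EPZ 2 was left out (adjusted p from 0.0526 to 0.0973) and with the EPZ effect scaled (-0.02, adjusted p = 0.991).

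Of 12 tested effector cytokines and chemokines, 2 were called higher and 2 lower (33.3% called). Xcl1, the chemokine that draws cross-presenting dendritic cells, had 67.3, 78.0 and 68.4 CPM in KO, against 4.60, 4.03 and 6.03 in WT, and 6.84, 6.44, 5.09 and 7.23 CPM in EPZ, against 2.44, 3.20, 2.33 and 2.50 in DMSO. It rose in both, by 3.78 and 1.27, with a difference of 2.50 ± 0.22 (adjusted p = 1.5e-06) that held with the EPZ effect scaled and without the 4 libraries in doubt. Spp1, which encodes osteopontin, had 330.2, 326 and 471 CPM in KO, against 7.98, 3.67 and 7.94 in WT, and 9.61, 6.56, 10.8 and 18.9 CPM in EPZ, against 3.26, 2.30, 4.54 and 3.62 in DMSO, and differed by 4.00 ± 0.56 (adjusted p = 0.0015). The lymphotoxin genes Ltb and Lta fell further in KO, with differences of -1.01 ± 0.15 and -0.84 ± 0.20. Spp1, Ltb and Lta were not called with the EPZ effect scaled (adjusted p = 0.0669, 0.126 and 0.293). Nor were they called without the 4 libraries in doubt, where each kept its direction.

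Effector and fate transcription factors gave 4 higher and 3 lower of 29 tested (24.1% called). Beside Tox and Nr4a3, Hif1a, the hypoxia factor, had an EPZ effect alone (-0.07 in KO and 0.35 in EPZ, difference -0.42 ± 0.09). Zfp683, the tissue residency factor Hobit, fell in both (-2.49 and -1.37), and its difference of -1.12 ± 0.25 was not called with the EPZ effect scaled (adjusted p = 0.709). The difference was not called for Tbx21 (-0.40 ± 0.23, adjusted p = 0.34) or Eomes (-0.35 ± 0.16, adjusted p = 0.20), the T-box factors of effector cells. Maf, chosen after its values were seen, rose by 1.70 in KO and by 2.28 in EPZ. Its difference of -0.58 ± 0.31 was not called (adjusted p = 0.29) but was with the EPZ effect scaled (-2.00, adjusted p = 0.0175).

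Inhibitory receptors gave 3 higher and 5 lower of 22 tested (36.4% called). Btla, an inhibitory receptor of naive cells, differed by -1.70 ± 0.20 (-2.54 in KO and -0.84 in EPZ), and Nt5e, the ectoenzyme CD73, by -0.95 ± 0.12 (-0.89 and 0.06). Havcr2, the exhaustion receptor TIM-3, chosen after its values were seen, had 32.7, 34.1 and 49.7 CPM in KO, against 15, 5.13 and 9.23 in WT, whereas EPZ libraries at 4.18, 1.93, 5.20 and 4.85 CPM overlapped DMSO libraries at 5.03, 2.70, 5.52 and 4.99. Its difference of 2.13 ± 0.50 (adjusted p = 0.023) was lost without KO 3, WT 3 or DMSO 1, at adjusted p of 0.0516 to 0.0686.

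Glycolysis and lactate genes were called higher more often in EPZ than in KO. Of 24 genes, 12 were called higher and 1 lower in EPZ over DMSO, and 4 higher and 6 lower in KO over WT. The difference was called lower for 5 and higher for 0 (20.8% called), with median effects of -0.069 in KO and 0.189 in EPZ and a median difference of -0.247. In 12 of the 24 all KO over WT ratios lay below all EPZ over DMSO ratios, against 9.08% of all genes. With the EPZ effect scaled 4 were lower, with the animal as a block 9 were lower and 1 higher, and without the 4 libraries in doubt 2 were lower.

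Hk2, the inducible hexokinase (ENSMUSG00000000628, chromosome 6, 82725025 to 82774454), had 167, 140 and 143 CPM in KO, against 209, 190 and 181 in WT, and 55.5, 54.6, 54.7 and 89.1 CPM in EPZ, against 34.7, 36.0, 41.8 and 48.1 in DMSO. All KO libraries lay below all WT libraries, and all EPZ libraries above all DMSO libraries, and both KO and WT were well above EPZ and DMSO. The KO effect was -0.37 ± 0.18 (adjusted p = 0.13), the EPZ effect 0.66 ± 0.16 (adjusted p = 0.010) and the difference -1.03 ± 0.24 (adjusted p = 0.020). That call was lost without KO 2 (adjusted p = 0.0671), KO 3 (0.0562), WT 1 (0.0501), DMSO 1 (0.057) or DMSO 2 (0.0525). Hk1, another hexokinase gene, differed by -0.35 (adjusted p = 0.017). The call of Hk1 was lost without KO 2, KO 3, WT 3, EPZ 3, DMSO 1 or DMSO 2, and with the EPZ effect scaled (adjusted p = 0.0851). Neither hexokinase gene was called without the 4 libraries in doubt, and both kept their direction. The hypoxia-induced genes Bnip3 and Egln3, on the same list although they encode no glycolytic enzyme, fell in KO by 0.92 and 0.93, against EPZ effects of -0.08 and -0.16. Their differences of -0.84 ± 0.15 and -0.77 ± 0.12 held in each fit without 1 library and without the 4 libraries in doubt. They were the members of the list that held without those 4 libraries.

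DNA replication genes showed the same imbalance of calls. In EPZ over DMSO 22 of 41 were called higher and 2 lower, and in KO over WT 5 higher and 4 lower. The medians were 0.064 in KO, 0.378 in EPZ and -0.295 for the difference, yet the difference was called lower for 3 and higher for 0 (7.32%, near the 7.67% of all genes). It was called lower for 10 with the animal as a block and for 2 with the EPZ effect scaled. E2f2, an activating E2F factor, differed by -0.63 ± 0.14 (-0.96 in KO and -0.33 in EPZ; adjusted p = 0.0070). Mcm2, a subunit of the replicative helicase, was chosen after its values were seen, and its effects of 0.29 ± 0.12 and 0.65 ± 0.11 differed by -0.36 ± 0.16 (adjusted p = 0.21), which was called with the animal as a block (adjusted p = 0.0339). Mitosis genes had medians of -0.180 in KO, 0.159 in EPZ and -0.318 for the difference. Of 31, 3 were called lower and 0 higher (9.68%), with 5 lower under the block and 1 with the EPZ effect scaled. Foxm1, the factor of mitotic genes, differed by -0.62 ± 0.15 (-0.39 and 0.24; adjusted p = 0.015). Mki67, the proliferation marker, chosen after its values were seen, differed by -0.71 ± 0.29 (adjusted p = 0.19).

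Cholesterol synthesis and uptake genes were called higher for 12 of 27 in EPZ over DMSO and lower for 3, against 1 higher and 2 lower in KO over WT. Only 1 of them was called for the difference, lower (3.7%, under the share of all genes): the sterol exporter gene Abcg1 (-0.72 ± 0.12, adjusted p = 0.0014), which fell in both and was not called with the EPZ effect scaled (adjusted p = 0.257). With the animal as a block 5 were lower, and with the EPZ effect scaled 0. For the synthesis enzyme genes Sqle and Msmo1, KO effects of 0.02 and 0.04 stood beside EPZ effects of 0.39 and 0.35, and the differences were not called (adjusted p = 0.11 for each) except with the block (adjusted p = 0.0102 and 0.0469).

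**Figure D4:**
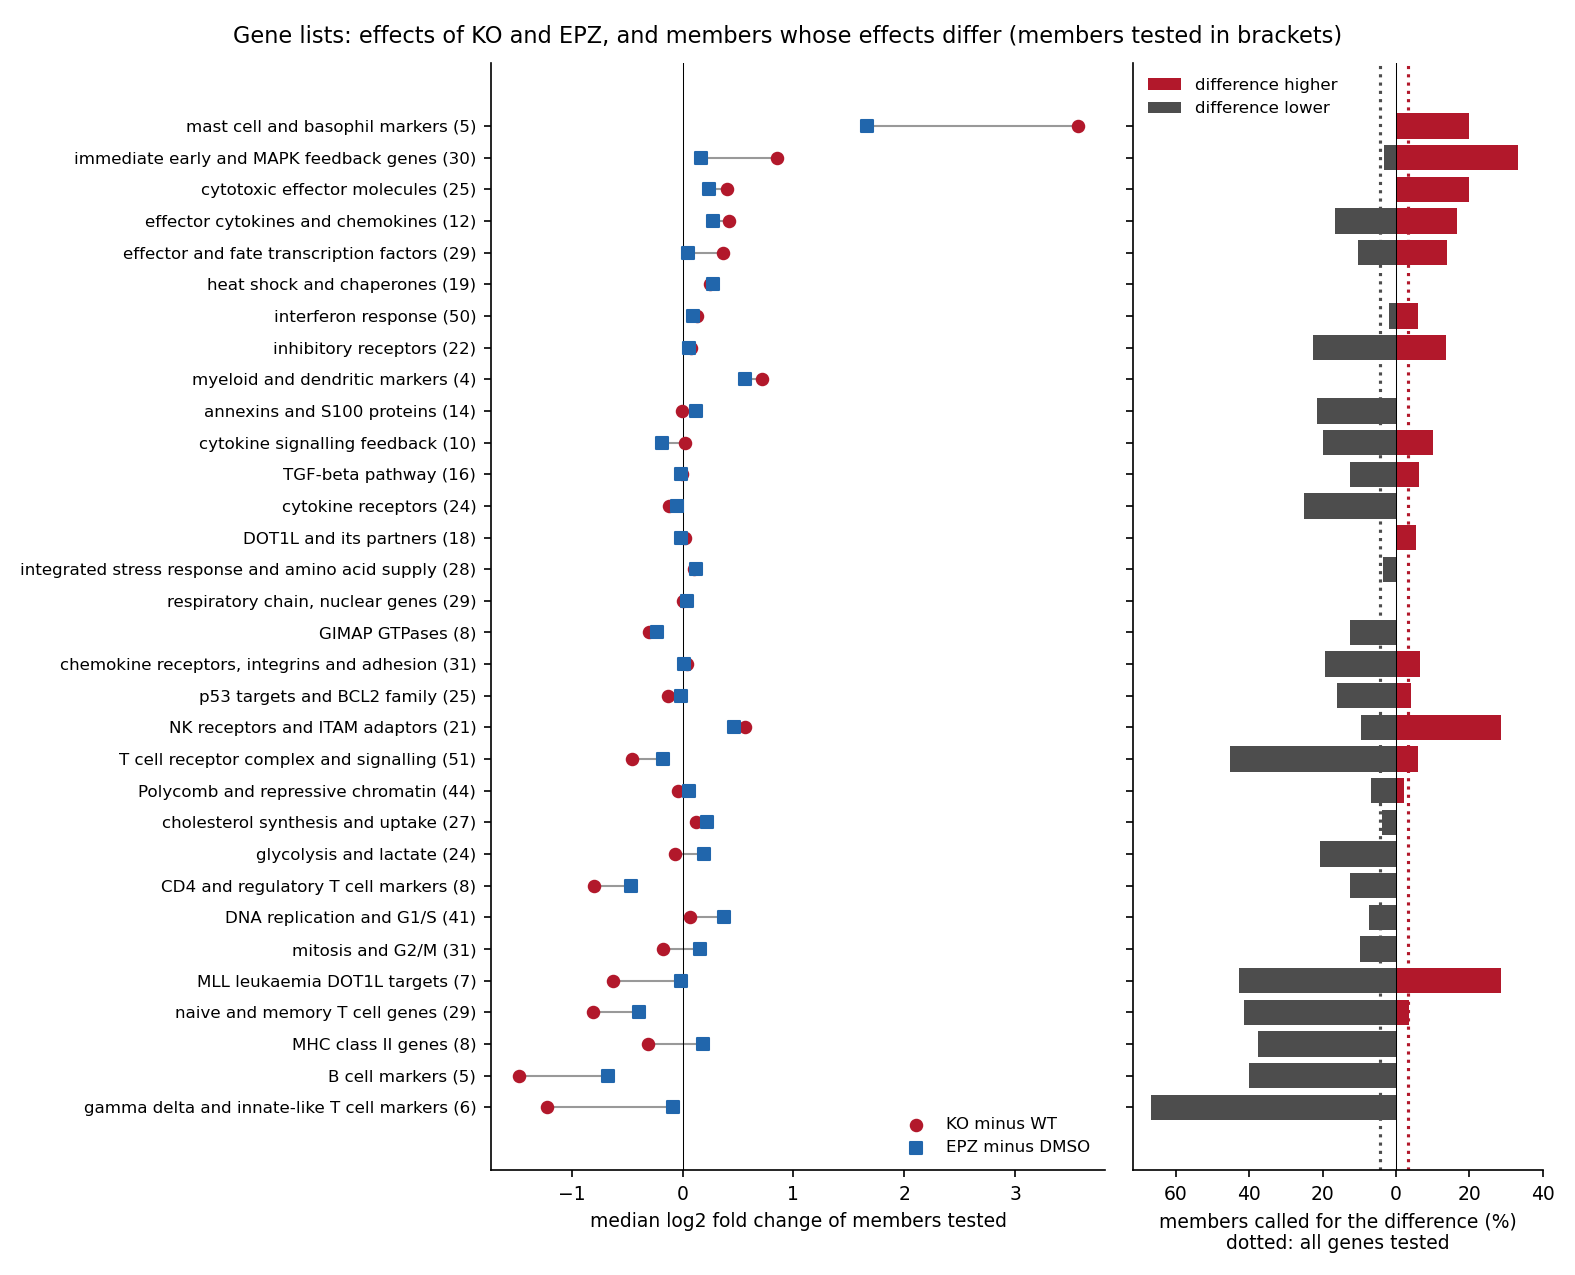
Left, median KO effect (circles) and median EPZ effect (squares) in log2 units for each gene list with at least 3 members tested. Right, the percent of tested members called higher or lower for the difference, with dotted lines at 3.32% and 4.36%, the shares of all genes. T cell receptor, naive and memory and gamma delta genes have the larger falls in KO, and DNA replication and glycolysis genes have higher medians in EPZ than in KO.

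The remaining lists ranged from no call to most of their members. Of 19 heat shock and chaperone genes tested, 11 were called higher in KO over WT and 11 in EPZ over DMSO, and the difference was called for 0. Respiratory chain genes gave 0 of 29. The interferon response gave 3 higher and 1 lower of 50 (8%), amino acid supply and the integrated stress response 0 higher and 1 lower of 28 (3.57%), and Polycomb and repressive chromatin genes 1 higher and 3 lower of 44 (9.09%). DOT1L and its partners gave 1 of 18, Dot1l itself. Among 7 tested DOT1L targets of MLL leukaemia, 2 were higher and 3 lower (71.4% called). Besides Myb, the Runt-family factor Runx2 fell in KO alone (-0.62 in KO and -0.01 in EPZ, difference -0.61 ± 0.14, adjusted p = 0.0099). Of 8 tested MHC class II genes 3 were called lower (37.5%). H2-Oa, a chain of a modulator of peptide loading, differed by -1.03 ± 0.19, which was not called with the EPZ effect scaled (adjusted p = 0.104). Of 25 tested p53 and BCL2 family genes 1 was higher and 4 lower (20%), among them the survival gene Bcl2 (-0.54 ± 0.09; -0.66 in KO and -0.12 in EPZ) and the death receptor gene Fas (-0.93 ± 0.17; -1.26 and -0.34). Pim3, a kinase gene of cytokine signalling, differed by 1.21 ± 0.17 (1.67 and 0.47; adjusted p = 0.00024). The calls of Runx2, H2-Oa, Bcl2, Fas and Pim3 were lost without the 4 libraries in doubt, with their direction kept.

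Several of the largest differences lay outside these lists. St6gal1, which adds sialic acid to N-glycans, had 3.17, 2.72 and 1.46 CPM in KO, against 48.4, 67.6 and 43.5 in WT, and 63.4, 84.9, 63.5 and 63.4 CPM in EPZ, against 158, 232, 111 and 181 in DMSO. No groups of a pair overlapped, and the effects of -4.39 ± 0.38 and -1.31 ± 0.21 differed by -3.08 ± 0.45 (adjusted p = 0.0016). Without the 4 libraries in doubt the difference of St6gal1 was -2.62 and was no longer called. Abca3, a lipid transporter gene, had 2.41, 2.56 and 1.68 CPM in KO, against 19.96, 32.3 and 22.2 in WT, and 31.6, 35.4, 34.0 and 33.4 CPM in EPZ, against 51.5, 51.3, 65.3 and 52.2 in DMSO, a difference of -2.69 ± 0.23 (adjusted p = 1.6e-06). Among genes higher in KO, Avil, an actin-binding gene, differed by 3.87 ± 0.69, the cadherin gene Cdh17 by 3.87 ± 0.88 and the adaptor gene Sh2d1b1 by 3.91 ± 0.82. Sh2d1b1 rested on 417 counts in KO, 8 in WT, 44 in EPZ and 10 in DMSO. All 3 were not called with the EPZ effect scaled (adjusted p = 0.11, 0.221 and 0.183). The calls of Avil, Cdh17 and Sh2d1b1 were also lost without the 4 libraries in doubt, with their direction kept.

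Where a KO effect alone was called, the counts of the largest differences were often low. Emp2, a tetraspan membrane protein gene, was counted 285 times in KO but 1 time in WT. The ratio of 275 has an exact 95% interval of 49.0 to 10904 for counting error only, and the gene had 16 counts in EPZ and 3 in DMSO. Its call was lost without WT 1, WT 2, WT 3, DMSO 1 or DMSO 3 (adjusted p from 0.0522 to 0.226). Scin, which severs actin, had 114, 117 and 162 CPM in KO, against 2.30, 1.1 and 2.68 in WT, and 0.597, 0.220, 0.823 and 0.740 CPM in EPZ, against 0.192, 0, 0.368 and 0.172 in DMSO. Its difference of 4.11 ± 1.06 (adjusted p = 0.027) was lost without DMSO 1, DMSO 3 or DMSO 4 (adjusted p from 0.0676 to 0.142). Adamts14, a procollagen protease gene, differed by 4.20 ± 0.93 (997 counts in KO, 31 in WT, 76 in EPZ and 35 in DMSO). The calls of Emp2, Scin and Adamts14 were lost without the 4 libraries in doubt, with their direction kept. Lower in KO alone were the receptor kinase gene Acvrl1 (-2.22 ± 0.25) and the SH2 adaptor gene She (-2.12 ± 0.26), and both held with the EPZ effect scaled and without the 4 libraries in doubt. Within every animal, however, the EPZ library of She lay above the DMSO library. With the animal as a block its EPZ effect was 0.31 (edgeR adjusted p = 0.046), of opposite sign to its KO effect.

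An EPZ effect alone was called for 47 genes higher and 36 lower in EPZ. Slc4a4, a sodium bicarbonate cotransporter gene, had 8.88, 9.13 and 8.51 CPM in KO, overlapping 9.92, 9.90 and 7.63 in WT, and 10.2, 11.3, 9.31 and 10.4 in EPZ, against 4.27, 5.41, 6.13 and 4.56 in DMSO. The KO effect of -0.01 ± 0.15 and the EPZ effect of 1.04 ± 0.13 differed by -1.05 ± 0.20 (adjusted p = 0.0028). Cd86, a costimulatory ligand, had effects of -0.49 ± 0.22 (adjusted p = 0.092) in KO and 1.07 ± 0.21 in EPZ, and differed by -1.55 ± 0.30. Reep1, an endoplasmic reticulum shaping gene, differed by -1.62 ± 0.35 (-0.50 and 1.12). In the other direction Lztfl1, a regulator of ciliary traffic, fell by 0.90 in EPZ with a KO effect of 0.10, a difference of 1.00 ± 0.22 (adjusted p = 0.0095). The calls of Slc4a4, Cd86, Reep1 and Lztfl1 were lost without the 4 libraries in doubt, with their direction kept. They were also lost against a minimum fold of 1.5, and those of Cd86 and Reep1 with the libraries thinned to equal depth.

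Wfikkn2, a secreted protease inhibitor that binds myostatin, had 5.58, 6.35 and 7.62 CPM in KO, against 2.90, 2.38 and 1.91 in WT, and 7.06, 5.67, 6.02 and 6.41 CPM in EPZ, against 0.911, 0.820, 1.47 and 0.516 in DMSO. Levels in KO and EPZ were close to each other, and WT libraries lay above DMSO libraries, with effects of 1.5 in KO and 2.80 in EPZ. The difference of -1.3 ± 0.33 (adjusted p = 0.020) was lost without KO 2 (0.0523) or WT 1 (0.0643). The class of genes with both effects called and the larger one in EPZ held 1 gene in the fit of all libraries, 0 without KO 2 or WT 1, 2 without WT 3, EPZ 3, EPZ 4, DMSO 1 or DMSO 3, and 10 with the animal as a block.

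Markers of other cell types moved between the groups as well. Summed B cell markers stood at 126 to 149 CPM in KO, 493 to 603 in WT, 437 to 570 in EPZ and 1060 to 1320 in DMSO, nearly all of it Ighm (means of 124, 529, 489 and 1105 CPM), with Ms4a1, Fcer2a and Iglc2 at 0 counts in all libraries. Of 5 tested, 2 were called lower for the difference: Ighm by -0.91 ± 0.15, not called with the EPZ effect scaled (adjusted p = 0.674), and Cd79b by -1.40 ± 0.22. Gamma delta and innate-like markers summed to 116 to 125 CPM in KO, 216 to 269 in WT, 250 to 282 in EPZ and 244 to 263 in DMSO, and 4 of 6 tested were called lower. Trdc, the delta chain constant gene, differed by -0.93 ± 0.10 (-0.83 in KO and 0.11 in EPZ), and Trgc4, a gamma chain gene, by -2.57 ± 0.35. CD4 and regulatory T cell markers summed to 267 to 308 CPM in KO, 475 to 497 in WT, 344 to 387 in EPZ and 513 to 593 in DMSO, and 1 of 8 tested, Ccr4, was called. Myeloid and dendritic markers summed to 20.4 to 27.4 CPM in KO, 10.8 to 12.8 in WT, 10.3 to 12.2 in EPZ and 5.25 to 8.18 in DMSO, with 0 of 4 tested called and with Spi1, Clec9a, Xcr1, Siglech and Csf3r at 0 counts. Erythroid and platelet markers stayed at or under 8.74 CPM in sum, with 1 of 2 tested, Gata1, called lower (-1.63 ± 0.40, lost without KO 1 at adjusted p = 0.0515). The part of such cells in the differences was not tested.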

How the data were processed

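Polyadenylated RNA of 14 cultures was sequenced with a stranded protocol. The authors deposited raw counts per Ensembl gene. Per the submitters' processing notes, TopHat2 2.1, Bowtie 1.1 and HTSeq were used with mm10. No strand setting or annotation release is stated in the labels. Without a strand setting, reads of a gene and its antisense partner cannot be told apart. The line that names no gene had 0 counts and stayed out. Replicates are libraries of separate animals per their names, and no pair agreed within sampling noise (chi-square per degree of freedom 2.05 to 18.1).

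From the 55486 genes, filterByExpr (minimum count 10, minimum total 15) kept 12639. One model of 4 groups was fitted with edgeR 4.0.16 (R 4.3.3, TMM, robust quasi-likelihood F-test), and the KO effect minus the EPZ effect was tested as a contrast with Benjamini-Hochberg adjustment over all genes tested, called at 0.05. Standard errors were derived by dividing the log2 fold change by the root of F. A gene was sorted by its calls in both comparisons. Ratios of single libraries used a pseudocount of 0.5. Levels are CPM with TMM factors. Intervals and floors (3 counts) cover counting error only.

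The library names give the same 4 animals in EPZ and DMSO, so they are paired. After group means were removed, the correlation within pairs ran from -0.112 to 0.538. KO and WT came from different animals, and blocking on the animal was an alternative. Others were DESeq2 1.42.0, limma 3.58.1 with library weights, relative log expression factors, filters, thinning to equal totals, a minimum fold of 1.5, separate fits, an EPZ effect multiplied by 1.62 and leaving out each library. The fit without 4 libraries was added after seeing the data.

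Named genes are 8 fixed ones (Dot1l, Prf1, Gzmb, Ifng, Tbx21, Eomes, Tcf7 and Cd8a). To them were added the largest differences per class and direction of effect (6 for opposite signs, 4 otherwise) with at least 5 CPM in the highest group. Predicted genes, receptor segments and genes of sex chromosome dosage were left out. Each list with a call added its members of smallest adjusted p (at most 4, or 2 for other lists), which complete the rule. Other genes were chosen after their values were seen. The members and the 33 gene lists were chosen with earlier results of these data known.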

Additional observations from a re-analysis of the deposited data

Results flagged for a closer look

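In groups of 4 libraries, 16 of 364 pairs of a gene and a group had 1 library far from the other 3 by Dixon's criterion. Chance flags about 1 in 20 groups. Among EPZ libraries, EPZ 4 stood high for Hk2 (89.1 CPM against 54.6 to 55.5 in the others) and Nr4a1 (7.73 against 4.88 to 5.01). EPZ 3 stood high for Hif1a (388 against 322 to 328) and low for Msmo1 (46.9 against 55.2 to 55.9). EPZ 2 stood high for St6gal1 (84.9 against 63.4 to 63.5) and Itgam (1.76 against 0.977 to 1.08), and low for Tgfb1 (136 against 154 to 157). Sh2d1b1 was high in EPZ 1 (1.09 against 0.411 to 0.514).

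Among DMSO libraries, DMSO 3 stood high for Kit (25.5 against 15.1 to 15.7), Ifng (1.23 against 0.516 to 0.575), Abca3 (65.3 against 51.3 to 52.2) and Plcg1 (401 against 370.1 to 375), and low for Cxcr3 (167 against 197 to 203) and Cd79b (7.97 against 9.81 to 10.2). DMSO 2 stood low for Dot1l (80.4 against 92.3 to 94.7) and high for Prkcz (30.9 against 25.4 to 26.1). KO and WT groups, with 3 libraries each, were not examined this way.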

How the results depend on the processing

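The difference was called for 419 genes higher and 551 lower. Relative log expression factors, DESeq2, library weights, both filters, robust fitting off and the block kept these counts within 1.5 times, and 905 of the 970 genes were shared with DESeq2 and 963 with the block. Thinned to 5643724 counts each, the counts were 188 and 263 for the difference, 1408 and 1326 for KO, 893 and 738 for EPZ, and the classes held 18 genes of opposite sign, 118 larger in KO, 277 KO alone and 33 EPZ alone. Against a minimum fold of 1.5 they were 59 and 50, 778 and 283, 337 and 46, with 0 of opposite sign, 17 larger in KO, 0 larger in EPZ, 86 KO alone and 0 EPZ alone, by construction. Scaling the EPZ effect gave 163 and 251. Separate fits of the 2 experiments gave 770 and 959, with 10 larger in EPZ, 998 KO alone and 161 EPZ alone. With the replicate block by animal, 61 were of opposite sign, 10 larger in EPZ and 173 EPZ alone, and among named genes the calls of Cdk6 and Igtp were lost and 16 gained. Larger in EPZ were 2 genes with no filter and 0 with at least 10 CPM in 3 libraries. Without the 4 libraries in doubt the counts were 27 and 45 for the difference and 485 and 456 for KO, with 7 of opposite sign, 28 larger in KO, 0 larger in EPZ, 35 KO alone and 2 EPZ alone, from 1 KO and 1 WT library, and 32 of 134 called named genes stayed called, all 134 with the same direction. Without 1 library the range was 276 to 489 higher and 322 to 634 lower for the difference, 1869 to 2302 and 1497 to 2406 for KO, 1303 to 1835 and 933 to 1559 for EPZ, 21 to 42 of opposite sign, 217 to 311 larger in KO, 0 to 2 larger in EPZ, 351 to 622 KO alone and 42 to 121 EPZ alone, where KO 1 (47), KO 3 (42), WT 1 (54), EPZ 2 (50) and EPZ 4 (53) lowered the last and DMSO 1 (217) the genes larger in KO. Of 134 called named genes, 90 stayed called in all 14 such fits and 74 with the EPZ effect scaled. Among called named genes, the only difference that turned its sign was that of Kit with the EPZ effect scaled (-0.016, adjusted p = 0.991). Signs also turned for 8 named genes that were not called, with the EPZ effect scaled (Ifng -0.413, Tcf7 0.208, Pdia6, Ighd, Il2ra and Gimap9), without EPZ 3 (Gimap9), without WT 1 (Klrb1c 0.003) or without the 4 libraries (Ighd and Cd22). The causes of these shifts were not tested except where stated. The median SE was 0.152 for the difference, 0.118 for the KO effect and 0.0963 for the EPZ effect, and differences of about that size were not detectable.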
